A study of Arabidopsis thaliana with 4 samples.

Results

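The glutathione transferases of the tau and phi classes of Arabidopsis thaliana were described in 41 genes, of 23174 genes with values. They were the 28 tau genes GSTU1 to GSTU28 and the 13 phi genes GSTF2 to GSTF14, taken whole by their locus numbers, and all 41 had a row in the deposited table. The classes were selected on measured values, the differences of their genes between the same mutant and wild-type libraries, so the counts of changed members given here describe these genes and do not show that they stand apart from other genes. Stranded RNA-seq of polyA+ RNA was made from whole seedlings 14 days old, raised on agar plates of MS medium at 22 °C with 16 h of light and 8 h of dark. There were 2 libraries of the mutant atino80-5 and 2 libraries of wild type. The mutant is named for INO80, the ATPase of a chromatin remodelling complex that moves nucleosomes. The labels give neither the lesion nor the background accession, nor whether replicates were separate cultures or how many seedlings went into each, so the spread behind the p-values is that of these libraries and may be technical.

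Glutathione transferases join the tripeptide glutathione to reactive or foreign compounds, and the conjugates are then carried into the vacuole and broken down. The tau and phi classes are the large plant classes of the family, and many of their genes sit in tandem arrays that arose by local duplication. In Arabidopsis many of them are induced by herbicide safeners, oxylipins, pathogens, auxin or salicylic acid, in part through TGA factors, which bind DNA at the letters TGACG. Some members have named roles beyond detoxification, among them anthocyanin transport for GSTF12 (TT19).

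The libraries held 13068214 and 14746250 reads in atino80-5 and 13846046 and 18406709 reads in wild type, and 0.383% to 0.491% of them fell on the 41 genes. INO80 itself (AT3G57300) stood at 2.72 and 3.13 FPKM in atino80-5 and at 4.28 and 4.54 FPKM in wild type, and the difference did not pass the test (limma adjusted p = 0.117). FPKM, as deposited by the authors, are reads per length of gene, scaled between libraries by size factors rather than by total reads. Markers were checked because whole seedlings hold several tissues. The summed level of 8 root marker genes was 548.6 and 661.5 FPKM in atino80-5 and 386.1 and 433.7 FPKM in wild type, most of it from PYK10. The median log2 difference of the list was -0.14, with 0.66 for PYK10, 0.01 for EXPA7 and -0.43 to -0.11 for the other 6 genes. That of 6 leaf marker genes was 47470 and 58470 FPKM in atino80-5 and 51480 and 44260 FPKM in wild type, most of it from RBCS1A and CAB1. The median log2 difference of the leaf list was 0.38. RBCS1A had -0.11 and CAB3 had 0.1, both with overlapping genotypes, and CAB1, RCA, LHCB5 and LHCA3 had 0.31 to 0.51 without overlap. That of 12 seed and embryo markers was 58.6 and 68.2 FPKM in atino80-5 and 0.976 and 0.937 FPKM in wild type, where SESA1 to SESA5 and ABI3 had no read. Most of the sum in atino80-5 came from CRA1, CRC and SESA5. FUS3 and LEC2 had means of 0.056 and 0.023 FPKM in atino80-5 and 0.085 and 0.022 FPKM in wild type, with overlapping genotypes. The other listed seed and embryo genes were higher in atino80-5 without overlap. Of these lists, 0 of 8 root, 0 of 6 leaf and 6 of 6 tested seed markers were called, the seed markers all higher. Those 6 seed markers had wild-type means of 0 to 0.39 FPKM. They reached the minimum mean of 1 FPKM for the test only through atino80-5, so their count follows largely from that minimum. The part of tissue make-up in the results below was not tested. In bulk seedlings, fewer cells of a type and less RNA per cell cannot be told apart.

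The comparison of atino80-5 with wild type gave 6 members lower in the mutant and none higher. All 6 were tau genes of 3 tandem arrays: GSTU1, GSTU2 and GSTU4 on chromosome 2, and GSTU22, GSTU24 and GSTU25 on chromosome 1. They were 1.84-fold to 5.55-fold lower by the ratio of mean FPKM. Of the 34 members tested, 23 lie in tandem arrays. A minimum mean level of 1 FPKM left 34 members for the limma test on log2(FPKM + 1), which was run on all 17642 genes at that level, and a gene was called at a Benjamini-Hochberg adjusted p under 0.05. Of all genes tested 2.42% were called lower and 2.99% higher, 5.41% in all. Without atino80-5 replicate 2, 11 members were called lower and 6 higher, in a fit that called 3001 of all genes lower and 3895 higher. Scaled to total reads, 481 of all genes were called higher and 1150 lower, in place of 528 and 427, and GSTF14 and GSTU10 were called lower beside the 6 members. The other 28 tested members, 17 tau and 11 phi, were not called. Before adjustment 13 of the 34 had a p under 0.05, as had 4761 of the 17642 genes tested. The genotypes did not overlap in 21 of the 34 members, 16 with atino80-5 lower, as in 28.8% of all genes tested, and 5 with atino80-5 higher, as in 33.4%. Every log2 difference given is atino80-5 minus wild type of log2(FPKM + 1), so low genes show less than their full change.

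**Figure D1:**
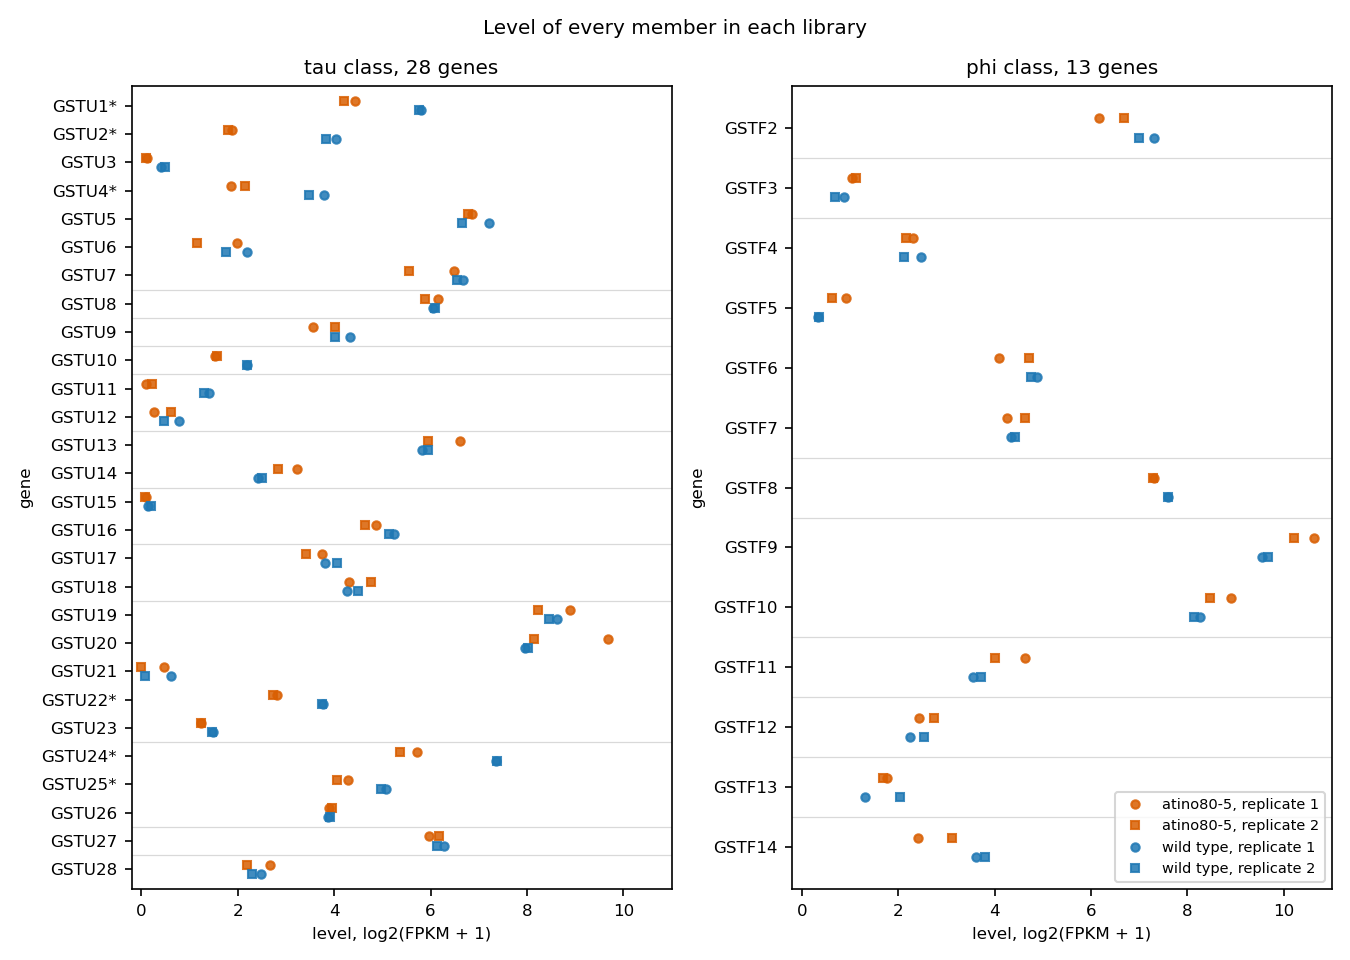
Level of each of the 41 genes as log2(FPKM + 1) in the 2 atino80-5 libraries (orange) and the 2 wild-type libraries (blue), with replicates 1 and 2 as circles and squares; grey lines separate tandem arrays and single genes, and asterisks mark the 6 genes called lower. The mutant points of GSTU1, GSTU2, GSTU4, GSTU22, GSTU24 and GSTU25 lie left of the wild-type points, and GSTF9 is the most abundant member.

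The array GSTU1 to GSTU7 holds 7 tau genes on the minus strand of chromosome 2, over 14.6 kb. Its first genes fell and its last ones were not called. GSTU1 (AT2G29490) stood at 20.7 and 17.5 FPKM in atino80-5 and at 55.2 and 53.1 FPKM in wild type. Its level fell 2.84-fold, and each genotype's libraries lay close together (log2 difference -1.46, SE 0.17, limma adjusted p = 0.0084). GSTU2 (AT2G29480) stood at 2.67 and 2.5 FPKM in atino80-5 and at 15.4 and 13.3 FPKM in wild type. It fell 5.55-fold, more than any other tested member (log2 difference -2.10, SE 0.15, limma adjusted p = 0.00312), from 35 and 40 reads in atino80-5 and 257 and 300 reads in wild type. GSTU4 (AT2G29460) stood at 2.62 and 3.44 FPKM in atino80-5 and at 12.9 and 10.07 FPKM in wild type. It fell 3.79-fold, and the genotypes did not overlap (log2 difference -1.63, SE 0.19, limma adjusted p = 0.0084). GSTU3, between GSTU2 and GSTU4, was nearly silent, with 1 and 1 reads in atino80-5 and 5 and 8 reads in wild type, and was too low for the test.

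The other 3 genes of this array were not called. GSTU5, long known as an auxin-induced gene, stood at 115.7 and 108.2 FPKM in atino80-5 and at 146.4 and 99.8 FPKM in wild type, and the genotypes overlapped (log2 difference -0.11, SE 0.23, limma adjusted p = 0.775). GSTU6 stood at 2.99 and 1.22 FPKM in atino80-5 and at 3.58 and 2.38 FPKM in wild type, again with overlap (limma adjusted p = 0.415). GSTU7 stood at 88.2 and 45.6 FPKM in atino80-5 and at 101.4 and 92.6 FPKM in wild type. The mutant libraries of GSTU7 differed 1.93-fold from each other (log2 difference -0.60, SE 0.31, limma adjusted p = 0.263), and without atino80-5 replicate 1 the gene was called lower (log2 difference -1.07, limma adjusted p = 0.00773). Without replicate 2 of the mutant the log2 difference of GSTU7 was -0.13 (limma adjusted p = 0.497). GSTU5 and GSTU6 share 83.6% of their coding letters with each other, and GSTU1 and GSTU2 share 85.5%. The difference between the called and uncalled genes of the array was not tested. GSTU2, GSTU6 and GSTU7 overlap a gene annotated on the other strand, and the strand setting of the authors' counting is not given in the sources used here, so reads of such genes could be mixed.

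The array GSTU24 to GSTU26 on chromosome 1 spans 7.1 kb of the plus strand. GSTU24 (AT1G17170) and GSTU25 (AT1G17180) encode enzymes known to conjugate the explosive TNT. GSTU24 stood at 52.0 and 40.4 FPKM in atino80-5 and at 163.5 and 164.6 FPKM in wild type. It fell 3.55-fold (log2 difference -1.82, SE 0.19, limma adjusted p = 0.0068), and of the called members it was the most abundant in wild type. GSTU25 stood at 18.5 and 15.8 FPKM in atino80-5 and at 32.6 and 30.4 FPKM in wild type. It fell 1.84-fold (log2 difference -0.84, SE 0.16, limma adjusted p = 0.0401), and lost its call without wild-type replicate 1 or 2 (limma adjusted p = 0.309 and 0.197). GSTU26, the last gene, stood at 13.8 and 14.6 FPKM in atino80-5 and at 13.7 and 14.2 FPKM in wild type, and the genotypes overlapped (log2 difference 0.03, SE 0.15, limma adjusted p = 0.913).

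In the array GSTU19 to GSTU23, 20.6 kb on the minus strand of chromosome 1, 1 of 4 tested genes fell. GSTU22 (AT1G78340) stood at 6.08 and 5.63 FPKM in atino80-5 and at 12.6 and 12.5 FPKM in wild type. It fell 2.14-fold (log2 difference -0.98, SE 0.14, limma adjusted p = 0.0175), and lost its call without wild-type replicate 1 or 2 (limma adjusted p = 0.107 and 0.0915). GSTU19, the most abundant tau gene in wild type, stood at 477.3 and 300.7 FPKM in atino80-5 and at 395.8 and 348.4 FPKM in wild type. Its mutant libraries lay on either side of the wild-type ones (log2 difference 0.03, SE 0.28, limma adjusted p = 0.955). GSTU20 (AT1G78370), also known as FIP1 for its binding to the jasmonate-conjugating enzyme FIN219/JAR1, stood at 818.9 and 280.8 FPKM in atino80-5 and at 249.0 and 259.9 FPKM in wild type. The mutant libraries of GSTU20 differed 2.92-fold, against 1.04-fold between the wild-type libraries, and the gene was not called (log2 difference 0.91, SE 0.48, limma adjusted p = 0.264). Without atino80-5 replicate 2 it was called higher (log2 difference 1.68, limma adjusted p = 0.00131), and without replicate 1 of the mutant its log2 difference was 0.14. GSTU23 stood at 1.37 and 1.35 FPKM in atino80-5 and at 1.79 and 1.75 FPKM in wild type and was not called (limma adjusted p = 0.324), and GSTU21 had at most 7 reads in any library.

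**Figure D2:**
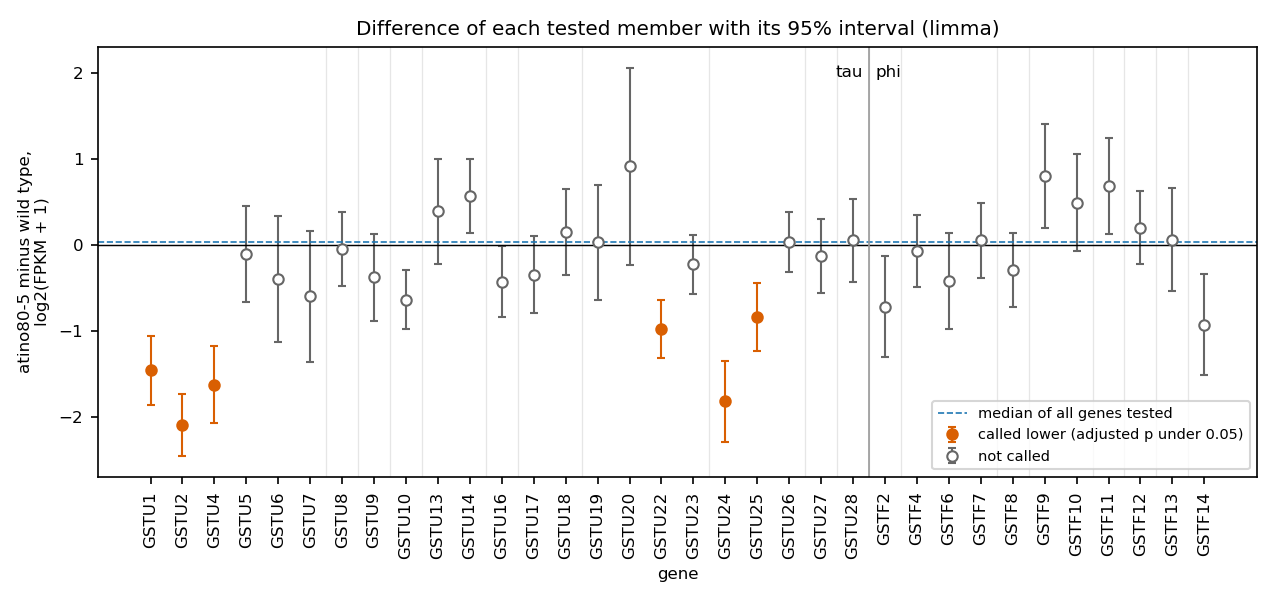
Log2 difference, atino80-5 minus wild type on the log2(FPKM + 1) scale, of the 34 tested members in family order with its 95% interval from limma; filled orange points are called lower and the dashed line is the median of all genes tested, 0.03. The 6 called genes lie between -2.10 and -0.84, and no phi gene is called in this fit.

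The stretch before the gene start is printed for 4 of the called genes, because TGACG is a textbook element of glutathione transferase promoters. They are the called genes for which no other annotated gene lies within 180 bases before the start, and GSTF9, the most abundant member, which was not called, is added. Sequences and coordinates are from RefSeq's TAIR10.1, run 5′ to 3′ on the gene's strand and end at the base before the annotated start. The submitters name TAIR10, and the annotated starts of their gene models may differ from these. Capitals mark TGACG, and none of the 5 stretches holds its reverse complement CGTCA.
GSTU1, chr2:12632539-12632718, minus strand: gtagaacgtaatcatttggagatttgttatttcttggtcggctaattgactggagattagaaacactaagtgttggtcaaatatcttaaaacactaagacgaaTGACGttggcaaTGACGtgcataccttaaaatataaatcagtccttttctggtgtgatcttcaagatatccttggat
GSTU4, chr2:12627892-12628071, minus strand: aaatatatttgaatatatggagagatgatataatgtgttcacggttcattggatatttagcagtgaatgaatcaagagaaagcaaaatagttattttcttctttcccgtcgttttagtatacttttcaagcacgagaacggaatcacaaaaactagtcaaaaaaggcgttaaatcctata
GSTU22, chr1:29474004-29474183, minus strand: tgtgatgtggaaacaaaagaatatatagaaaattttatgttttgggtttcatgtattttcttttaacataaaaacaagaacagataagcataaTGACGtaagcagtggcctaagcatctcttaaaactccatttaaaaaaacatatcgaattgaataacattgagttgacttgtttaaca
GSTU25, chr1:5871844-5872023, plus strand: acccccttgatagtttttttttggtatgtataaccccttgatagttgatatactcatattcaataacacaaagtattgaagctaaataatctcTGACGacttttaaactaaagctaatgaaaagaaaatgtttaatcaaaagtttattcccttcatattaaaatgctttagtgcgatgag
GSTF9, chr2:13138702-13138881, plus strand: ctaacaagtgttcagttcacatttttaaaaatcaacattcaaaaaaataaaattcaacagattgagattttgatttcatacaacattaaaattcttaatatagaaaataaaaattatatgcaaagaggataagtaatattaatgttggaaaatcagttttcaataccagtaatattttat
GSTU1 holds TGACG at 77 and 65 bases before the start, in the same direction and with their starts 12 bases apart. GSTU22 and GSTU25 each hold it 87 bases before the start. GSTU4 and GSTF9 hold none in these windows.

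Over 250 bases before the start and on both strands, TGACG occurred in 14 of the 41 members and in 19.3% of 22127 protein-coding genes of the table. It occurred in 4 of the 6 called members, 7 of the 28 tested and uncalled members and 3 of the 7 untested ones. By class it was found in 11 of 28 tau genes and 3 of 13 phi genes. TGACGNNNNNNNTGACG, with the 2 copies at the spacing seen in GSTU1, occurred in GSTU1 and GSTU7 and in 0.07% of all those windows (16 of 22127), and GSTU7 was not called. The spacing was taken from GSTU1, so the match in GSTU1 holds by construction. In the same windows and on both strands, the G-box letters CACGTG occurred in 3 members and 7.3% of all windows. TTGACC or TTGACT, the core of the W-box, occurred in 21 members and 28.5% of all windows, and neither can share its TGAC with a TGACG. This W-box core was found in 4 of the 6 called members, 12 of the 28 tested and uncalled members and 5 of the 7 untested ones. Differences between called and uncalled members were not tested for any of these motifs. The windows of 12 members overlap another annotated gene, and a match is no proof of a bound site.
The 20 bases from the first TGACG on are shown for GSTU1, GSTU22 and GSTU24, chosen after the sequences were seen because the last ones are alike over their whole length, and capitals again mark TGACG.
GSTU1, chr2:12632596-12632615, minus strand: TGACGttggcaaTGACGtgc
GSTU22, chr1:29474071-29474090, minus strand: TGACGtaagcagtggcctaa
GSTU24, chr1:5869374-5869393, plus strand: TGACGcaggcagtggcctaa
GSTU22 and GSTU24 share 18 of these 20 letters, and GSTU1 shares 13 with each. These counts include the opening TGACG, which is equal by construction. In GSTU24 the stretch begins 169 bases before the start and lies within the annotated neighbour AT1G17160.

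The phi class had no called member. Its most abundant gene, GSTF9 (AT2G30860), stood at 1573 and 1186 FPKM in atino80-5 and at 752.8 and 810.7 FPKM in wild type. Both mutant libraries were above both wild-type ones, but they differed 1.33-fold from each other, and the 1.76-fold higher mean was not called (log2 difference 0.80, SE 0.25, limma adjusted p = 0.115). Its neighbour GSTF10 stood at 478.3 and 351.5 FPKM in atino80-5 and at 304.3 and 279.0 FPKM in wild type, without overlap and not called (log2 difference 0.49, SE 0.23, limma adjusted p = 0.227). Both were called higher without atino80-5 replicate 2 (limma adjusted p = 0.01 for GSTF9 and 0.019 for GSTF10), and neither without replicate 1 of the mutant (limma adjusted p = 0.115 and 0.353). GSTF8, known for its early response to stress, stood at 157.9 and 156.0 FPKM in atino80-5 and at 191.7 and 192.7 FPKM in wild type and was not called (log2 difference -0.29, SE 0.18, limma adjusted p = 0.329).

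GSTF14 and GSTF2 had the lowest log2 differences of the phi class. GSTF14 stood at 4.35 and 7.63 FPKM in atino80-5 and at 11.2 and 12.9 FPKM in wild type (log2 difference -0.93, SE 0.25, limma adjusted p = 0.0848). GSTF2, which binds auxin transport inhibitors and camalexin, stood at 71.0 and 102.4 FPKM in atino80-5 and at 158.2 and 126.2 FPKM in wild type (log2 difference -0.72, SE 0.24, limma adjusted p = 0.133). In both, the mutant libraries lay below the wild-type ones. The coding sequence of GSTF2 is 94.5% identical to that of GSTF3, and that of GSTF6 is 94.3% identical to that of GSTF7, so their reads may have been split between copies. GSTF2, GSTF4, GSTF10, GSTF11 and GSTF12 also overlap an annotated gene on the other strand, and GSTF8 overlaps one on its own strand. GSTF6, which takes part in camalexin synthesis, had a log2 difference of -0.42 (limma adjusted p = 0.283) and its copy GSTF7 one of 0.05 (limma adjusted p = 0.871). GSTF11, placed in aliphatic glucosinolate synthesis, stood at 23.8 and 15.2 FPKM in atino80-5 and at 10.8 and 12.3 FPKM in wild type, without overlap (log2 difference 0.68, limma adjusted p = 0.134). GSTF12 (TT19) stood at 4.43 and 5.68 FPKM in atino80-5 and at 3.77 and 4.79 FPKM in wild type, with overlap (log2 difference 0.20, limma adjusted p = 0.496). GSTF4 and GSTF13 had log2 differences of -0.07 and 0.06.

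The classes differed in how their members were spread. The median log2 difference was -0.35 over 23 tested tau genes and 0.05 over 11 tested phi genes, against 0.03 over all genes tested, and the difference between the classes was not tested. Scaled to total reads, these medians were -0.55 for tau, -0.16 for phi and -0.157 for all genes. Of the tau genes 16 had a negative and 7 a positive difference, and of the phi genes 5 had a negative and 6 a positive one. The classes also differ in gene structure, with 2 coding exons in all 28 tau genes and 3 in 10 of 13 phi genes. Coding identity had a median of 74.4% within arrays, 58.2% within a class outside arrays and 52.4% between classes.

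Summed FPKM followed the few abundant genes rather than the called ones. The tau sum was 1936 and 1116 FPKM in atino80-5 and 1504 and 1401 FPKM in wild type, so the mutant libraries lay on either side of wild type. GSTU20 made up 42.3% and 25.2% of it in atino80-5 and 16.6% and 18.5% in wild type. The 6 called genes together stood at 102.5 and 85.2 FPKM in atino80-5, or 5.3% and 7.6% of the tau sum, and at 292.2 and 284.0 FPKM in wild type, or 19.4% and 20.3%. These 6 genes were called lower in the same libraries, so their lower sum in atino80-5 follows from the choice. The phi sum was 2355 and 1880 FPKM in atino80-5 and 1488 and 1492 FPKM in wild type. GSTF9 made up 66.8% and 63.1% of the phi sum in atino80-5 and 50.6% and 54.3% in wild type. Phi genes held 54.9% and 62.8% of the summed level of the 41 genes in atino80-5 and 49.7% and 51.6% in wild type. These shares were not tested.

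**Figure D3:**
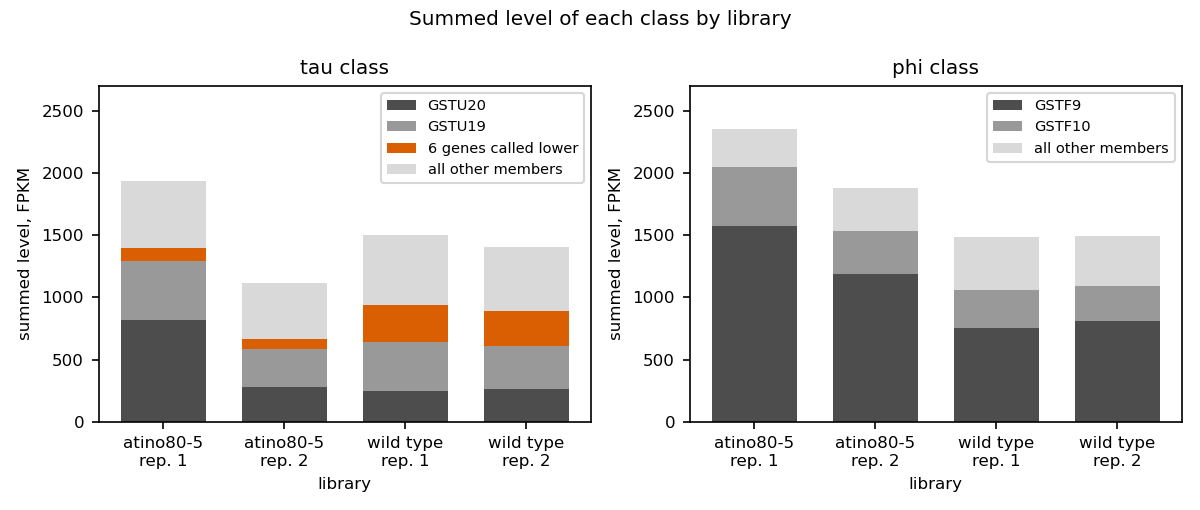
Summed FPKM of the 28 tau genes (left) and the 13 phi genes (right) in each library, atino80-5 before wild type, with stacked bars for the most abundant genes, the 6 called tau genes (orange) and all other members. The orange part is 102.5 and 85.2 FPKM in atino80-5 and 292.2 and 284.0 FPKM in wild type, and replicate 1 of atino80-5 has the highest sum in both classes. The orange genes were called lower in these same libraries, so their lower sum follows from the choice.

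The remaining tau genes were not called. GSTU10 came closest, at 1.87 and 1.98 FPKM in atino80-5 and 3.54 and 3.58 FPKM in wild type (log2 difference -0.64, SE 0.14, limma adjusted p = 0.0552). It overlaps annotated genes on both strands. In the array of GSTU13 and GSTU14 the differences were positive, 0.39 for GSTU13 (limma adjusted p = 0.345) and 0.57 for GSTU14 (limma adjusted p = 0.117). The mutant libraries of GSTU13 differed 1.59-fold, at 96.3 and 60.6 FPKM, against 55.3 and 60.8 FPKM in wild type, so the genotypes overlapped. GSTU17, also known as ERD9 from its response to dehydration, and GSTU18 next to it had log2 differences of -0.35 and 0.15, and their annotated ends overlap. GSTU16 had -0.43, and the single genes GSTU8, GSTU9, GSTU27 and GSTU28 had differences between -0.38 and 0.05.

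The minimum level left out 7 members, which had from 2 to 31 reads over both atino80-5 libraries and from 6 to 70 reads over both wild-type libraries. GSTU11 had 1 and 3 reads in atino80-5 and 32 and 38 reads in wild type. That is a scaled ratio of wild type to atino80-5 of 13, with an exact 95% counting interval of 4.85 to 49.0 that covers counting error only. In the authors' deposited table GSTU11 had a log2 fold change of -3.73 and an adjusted p of 0.00395. With no minimum level limma also called it lower (adjusted p = 0.0126). The ratio for GSTU3 was 4.82, with an interval of 1.09 to 44.0, and for GSTU12, the neighbour of GSTU11, it was 1.37 with an interval of 0.67 to 2.93. GSTU15, GSTU21 and GSTF3 had intervals that include 1. For GSTF5 the ratio was 0.391, with an interval of 0.162 to 0.883, from 19 reads in atino80-5 and 10 reads in wild type.

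In the authors' deposited table of their DESeq2 test, 38 members had an adjusted p. It was under 0.05 with a negative log2 fold change in 9, in a table where 3.65% of 20478 genes were so, and with a positive one in 1, in a table where 5.85% were so. The 9 were the 6 genes called lower by limma with GSTU11, GSTF14 and GSTF2, and the 1 was GSTF9. In the authors' deposited table the log2 fold changes of the 6 ran from -2.47 for GSTU2 to -0.88 for GSTU25. In that table GSTF9 had 0.82 with an adjusted p of 0.00349, GSTF14 had -1.0 with 0.0343 and GSTF2 had -0.71 with 0.0391.

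Other genes of glutathione metabolism were mostly not called. Of 9 tested genes of glutathione synthesis, reduction and breakdown, 1 rose and none fell, with a median log2 difference of 0.06. The 1 was GGCT2;1, a cytosolic enzyme that breaks down glutathione, at 5.83 and 5.80 FPKM in atino80-5 and 2.98 and 2.96 FPKM in wild type (log2 difference 0.78, SE 0.14, limma adjusted p = 0.0303). It lost its call without wild-type replicate 1 or 2 (limma adjusted p = 0.225 and 0.197), with no minimum level (0.0531) and scaled to total reads (0.0522). GSH1 and GSH2, which make glutathione, had log2 differences of 0.45 and 0.33 and were not called. None of 7 tested glutathione peroxidase-like genes, 10 tested transferase genes of other classes or 4 regulator genes (TGA2, TGA5, TGA6 and SCL14) was called by limma, and 1, 2 and 0 of them had an unadjusted p under 0.05. The median log2 differences of these 3 lists were -0.33, 0.07 and -0.06. The most abundant of each list were GPX1 and GPX6 at 294.3 and 138.9 FPKM, DHAR1 and DHAR3 at 129.1 and 79.9 FPKM, and SCL14 and TGA5 at 14.3 and 2.41 FPKM in atino80-5, against 216.7 and 166.9, 112.0 and 60.0, and 12.6 and 2.92 FPKM in wild type (means).

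Of 4 ABCC genes listed as conjugate transporters, 1 fell. All 4 had lower values in atino80-5 without overlap, as had 28.8% of all genes tested. All 4 also had an unadjusted limma p under 0.05, as had 4761 of the 17642 genes tested. The median log2 difference of the 4 was -0.69. ABCC2 stood at 5.37 and 5.55 FPKM in atino80-5 and at 9.91 and 11.99 FPKM in wild type (log2 difference -0.88, SE 0.16, limma adjusted p = 0.031). It lost its call without wild-type replicate 1 or 2 (limma adjusted p = 0.0914 and 0.227) and narrowly with no minimum level (0.0502). ABCC3, ABCC4 and ABCC1 had log2 differences of -0.81, -0.57 and -0.38 and were not called (limma adjusted p = 0.0585, 0.121 and 0.171). In the authors' deposited table ABCC2 and ABCC3 had an adjusted p under 0.05, 0.000169 and 0.00467.

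**Figure D4:**
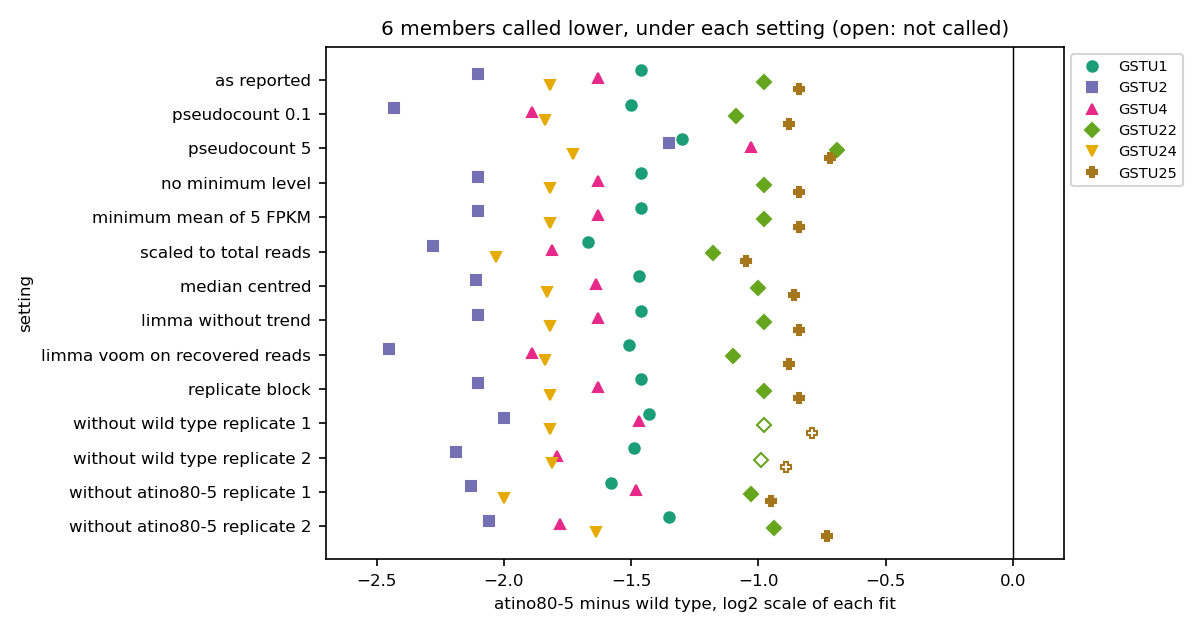
Log2 difference, atino80-5 minus wild type, of the 6 called genes as reported and under 13 other settings, each on the log2 scale of its fit; open symbols were not called. All 6 stay below 0 in every setting, and GSTU22 and GSTU25 are open without wild-type replicate 1 or 2. The genotypes do not overlap in any of the 6, so leaving out a library cannot turn their sign.

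The calls of GSTU1, GSTU2, GSTU4 and GSTU24 held in all 13 alternatives, with limma adjusted p-values of at most 0.0275 for GSTU1, 0.00952 for GSTU2, 0.02 for GSTU4 and 0.0143 for GSTU24. With 2 libraries a genotype, the smallest two-sided p of an exact permutation test is 0.33, so the calls rest on spread that limma shares between genes.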

How the data were processed

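The authors deposited FPKM for 23174 genes in 4 libraries, with their mean per genotype, and the DESeq2 output: mean normalised signal, log2 fold change and its error, score (Wald), p-value and adjusted p. FPKM were scaled by size factors, from the values: together with the deposited signal, 100.0% of 92696 values came out as whole reads, to within 0.01. Per the submitters' processing notes, the authors used TAIR10 with HISAT2, featureCounts and DESeq2, besides FastQC, cutadapt, SAMtools and deepTools. Annotation release, strand setting and filters: not given in the sources used here. Implied gene lengths were whole and equalled the TAIR10.1 gene span in 2579 of 23147 genes. How the other lengths were set is not known here, and a gene's length is the same in every library, so it does not enter ratios between libraries.

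Members, arrays, gene lists and tests were chosen with earlier results of these data known. The test was limma 3.58.1 (R 4.3.3) with trend, for genotype alone, on log2(FPKM + 1) of the 17642 genes whose mean reached 1 FPKM, adjusted by Benjamini-Hochberg. Alternatives were other pseudocounts, minimum levels and scalings, limma without trend, voom on the recovered reads, a replicate block and each library left out. The code was tested on simulated reads. Named were called members, the 3 most abundant of each class, all members of arrays with a called member, members under the minimum and, of the lists, called genes or the 2 most abundant. Other members and genes were named after their values were seen. Library pairs differed by a chi-square per gene of 38.6 in atino80-5 and 12.5 in wild type, so neither was 1 library deposited again. Of the 41 names, 39 equal the RefSeq symbol, and GSTU17 and GSTF13 appear there as ERD9 and ATGSTF13. RefSeq TAIR10.1 gave sequences, neighbours and coding identity (global alignment, equal letters over the longer coding sequence).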

Additional observations from a re-analysis of the deposited data

How the results depend on the processing

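Over 13 alternatives to the reported fit, the 6 called members stayed negative in all, and 2 of them, GSTU22 and GSTU25, lost their calls without wild-type replicate 1 or 2. The genotypes did not overlap in any of the 6, so leaving out a library or changing the pseudocount could not turn their sign. Leaving out 1 library each gave 4 to 11 members called lower and 0 to 6 called higher, with the highest counts without atino80-5 replicate 2, where 6896 of all genes were called in place of 955. These fits leave 1 library in a genotype and assume that it varies like the other libraries. They gave 443 to 6896 calls over all genes, a tau median of -0.39 to -0.18, and log2 differences of -0.39 to 0.16 for GSTU5, -0.82 to 0.02 for GSTU6, -0.30 to 0.36 for GSTU19 and -0.01 to 0.07 for GSTU26. Scaling to total reads moved the median of all genes from 0.03 to -0.157, gave 481 higher and 1150 lower calls in place of 528 and 427, and moved the tau median to -0.55, the phi median to -0.16, GSTU19 to -0.19 and GSTU26 to -0.18, a shift of the whole scale by construction. With a pseudocount of 5 the tau median was -0.17, since a larger pseudocount shrinks differences of low genes. With a minimum of 5 FPKM 572 genes were called of 10893 tested. Equal replicate numbers did not deviate together (r = -0.034 across genes), and no label says that a number marks a shared batch. The fit with the replicate number as a block called 1985 genes and 8 members lower, GSTU10 (adjusted p = 0.0406) and GSTF14 (0.00894) beside the 6. Low counts limit GSTU3, GSTU11, GSTU12, GSTU15, GSTU21, GSTF3 and GSTF5.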
